A study of Mus musculus with 16 samples.

Results

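The MHC class I genes examined were H2-K1, H2-D1, H2-Q1, H2-Q2, H2-Q4, H2-Q6, H2-Q7, H2-Q10, H2-T23 and H2-M3, all on mouse chromosome 17. They are 10 of the 22226 protein-coding genes of the annotation used, and they were chosen by name. DNase hypersensitive sites (DHS), which are stretches of open chromatin cut readily by the enzyme DNase I, were taken from 4 deposited peak lists. Overlapping peaks of the 4 lists were joined into DHS regions wherever they shared at least 1 bp. Of 51482 such regions, 18 overlapped a member gene or the 20 kb on either side of it, a set of windows that covers 370.6 kb.

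The lists came from nuclei of whole liver, and each pooled 4 libraries of 1 sex and strain: male C57BL/6J (B6), female B6, male CAST/EiJ (CAST) and female CAST. Mice of all groups were 8 weeks old, their nuclei received 32 units of DNase I, and no mouse was described as treated or genetically modified. B6 is the laboratory strain behind the mouse reference genome, and CAST is a wild-derived inbred strain of another mouse subspecies. Because libraries were pooled before peaks were identified, every value below is a single measurement without replicate error, no difference between lists could be tested, and intervals cover the counting of reads and nothing else.

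MHC class I molecules sit on the surface of nearly all nucleated cells, where a heavy chain paired with beta-2 microglobulin holds a short peptide from inside the cell for inspection by cytotoxic T cells. H2-K1 and H2-D1 encode classical heavy chains, whereas the H2-Q, H2-T and H2-M genes encode non-classical ones with narrower roles. The classical promoters carry an enhancer bound by NF-kB, an interferon-stimulated response element and a downstream module of X and Y boxes, and NLRC5 is the transactivator that acts through that module.

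The promoter letters are shown first because most of these genes share stretches of them, and in H2-Q6 and H2-Q7 a shared run is longer than a read end. Sequences are from RefSeq (GRCm38.p6) and cover 250 bases before to 50 bases after a gene start. They were given for 9 members, all but H2-Q1, and each was found exactly once on chromosome 17 of mm9, the build of the peak lists. In the lines that follow, all written 5′ to 3′ along the gene, capitals mark the NF-kB core GGGATTCCC and the interferon-stimulated core TTTCACTTC, which is a match to GAANNGAAA on the other strand. Sequences are upstream of the gene start except that of H2-D1, which is cut to 29 bases because an annotated exon of that gene reaches it. H2-M3 also holds the interferon-stimulated core but shares at most 11 bases in a row with any of the genes printed, and its stretch is left out.
H2-K1, chr17:34137303-34137427, minus strand: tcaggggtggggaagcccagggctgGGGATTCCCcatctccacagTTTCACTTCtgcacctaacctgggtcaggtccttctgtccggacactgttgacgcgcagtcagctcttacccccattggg
H2-D1, chr17:35399869-35399897, plus strand: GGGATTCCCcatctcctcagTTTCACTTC
H2-Q4, chr17:35516364-35516488, plus strand: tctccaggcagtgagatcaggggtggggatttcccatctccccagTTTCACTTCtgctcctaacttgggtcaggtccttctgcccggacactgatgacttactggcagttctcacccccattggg
H2-Q6, chr17:35561598-35561722, plus strand: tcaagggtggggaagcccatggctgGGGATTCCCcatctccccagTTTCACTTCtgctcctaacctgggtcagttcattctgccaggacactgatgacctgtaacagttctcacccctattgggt
H2-Q7, chr17:35575942-35576066, plus strand: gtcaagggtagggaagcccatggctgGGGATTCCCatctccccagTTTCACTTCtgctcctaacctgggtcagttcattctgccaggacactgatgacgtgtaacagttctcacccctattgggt
H2-Q10, chr17:35606834-35606958, plus strand: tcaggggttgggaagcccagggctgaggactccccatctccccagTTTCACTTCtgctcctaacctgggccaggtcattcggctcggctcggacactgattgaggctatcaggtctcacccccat

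Both strands of the 300-base promoters were searched, and matches of different motifs did not overlap. The NF-kB core was found in 4 of 9 members (H2-K1, H2-D1, H2-Q6 and H2-Q7), against 0.353% of all 32851 promoters in the table. The interferon-stimulated core was found in 7 of 9, all but H2-Q2 and H2-T23, against 7.52% of promoters. The CRE-like letters TGACG were found in 5 of 9 (20.8% of promoters) and CCAAT in 8 of 9 (37.4%), with H2-Q10 the member that lacks CCAAT. In H2-K1, H2-D1 and H2-Q6 the NF-kB core began 20 bases before the interferon-stimulated core. Counting from 1 at the 5′ end of GGGATTCCC, the letters of H2-Q4 at that same offset differed by C7T and those of H2-Q10 by G1A and T5C. A match or its absence describes letters of the B6 reference and says nothing on what is bound, and members share ancestry, so that these counts are not independent. The NF-kB letters searched are the core of the class I enhancer named above, so their share beside that of all promoters tests nothing.

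Promoter DHS, meaning a peak within 1 kb of an annotated start of the gene, were listed for H2-K1, H2-D1, H2-Q4, H2-Q10 and H2-M3, and were absent in all 4 lists at H2-Q1, H2-Q2, H2-Q6, H2-Q7 and H2-T23. Thus 5 of 10 members had a promoter DHS in male B6, beside 51.8% of all protein-coding genes in that list. The count was again 5 in female B6 (47.3% of genes) and 5 in male CAST (51.0%), and it was 4 in female CAST (44.4%), where H2-Q4 had none. The shares for the members lie near those of protein-coding genes in general. At least 1 DHS region lay in the window of 8 of 10 members, beside 75.0% of protein-coding genes with windows made the same way. The median was 1.5 regions per member window and 2 per protein-coding window.

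**Figure D1:**
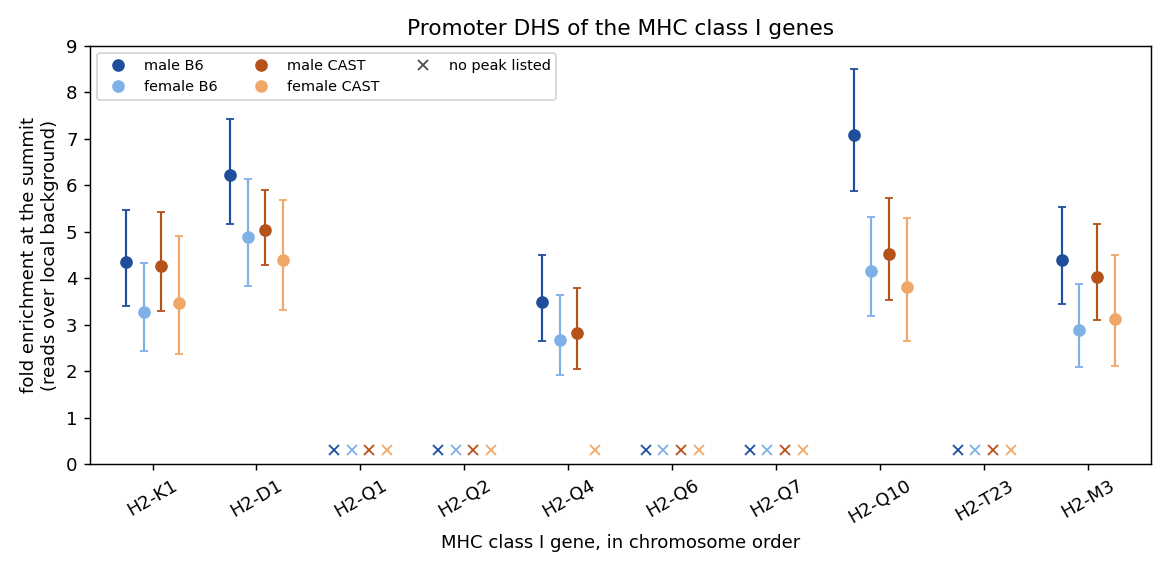
Fold enrichment at the promoter DHS of the 10 genes (points, linear axis from 0) in the 4 pooled lists, with bars giving the 95% Poisson interval of the summit read count carried to the fold enrichment, and crosses at the foot for lists without a promoter peak. Male B6 is the highest point at each of the 5 genes with a peak, most clearly at H2-Q10 (7.09 against 3.80 to 4.52 in the other lists), and 5 genes show crosses in all 4 lists.

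Fold enrichment is the number of reads piled up at the peak summit over the local background, each with 1 added, and it was set by the authors' peak caller separately in each list. Its median over all peaks was 3.48 and 3.28 in B6 males and females, and 3.74 and 4.05 in CAST males and females. Depth, after any scaling to an input by the caller, was read from the genome-wide background, which was 15.35, 13.93, 14.25 and 7.94 reads in the same order. The female CAST list was thus the shallowest, and it held 24888 peaks, whereas the other lists held 26271 to 39562.

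H2-K1, a classical heavy chain gene at chr17:34132962-34137278 on the minus strand, had its promoter DHS at chr17:34136906-34137511, over the start, the 5′ UTR and part of the coding sequence. Fold enrichment was 4.34 and 3.28 in B6 males and females and 4.26 and 3.47 in CAST males and females, from 70, 48, 64 and 30 reads. The male lists were higher in both strains, and within each sex the strains lay close together. The male B6 count had a 95% Poisson interval of 54.6 to 88.4 reads and the male CAST count one of 49.3 to 81.7. The peak stood at the 63.5th percentile of its list in male B6 and at the 35.3rd in female CAST. Among regions within 1 kb of a protein-coding start it stood lower, at the 41.6th and 21.6th percentile. Its summits lay at -15, 14, 50 and 50 bp of the gene start.

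H2-D1, the other classical gene of the set (chr17:35399675-35404444, plus strand), had the strongest promoter DHS of the members in female B6, male CAST and female CAST, at chr17:35399696-35400292. Fold enrichment was 6.23 and 4.89 in B6 males and females, against 5.05 and 4.38 in CAST. Read counts were 121, 72, 157 and 55 in that order, over local backgrounds of 18.6, 13.93, 30.3 and 11.78 reads. By fold enrichment male B6 was highest, but by reads over the genome-wide background, undivided by any median, the CAST lists were above the B6 lists of the same sex, with 7.88 and 5.17 in B6 males and females and 11.02 and 6.93 in their CAST counterparts. The local background exceeded the genome-wide one in male B6, male CAST and female CAST and equalled it in female B6, and its part in the strain difference was not tested. The annotated start lies upstream of the RefSeq start, and summits fell at 225 to 391 bp downstream of the annotated one. In the B6 lists the summit was 18 bp (male) and 7 bp (female) from the centre of the interferon-stimulated core printed for H2-D1, and in the CAST lists 33 bp (male) and 173 bp (female). At H2-K1, H2-Q4 and H2-Q10 that distance ran from 20 to 173 bp over the lists with a peak. At H2-M3 it ran from 246 to 564 bp, and the interferon-stimulated core of H2-M3 lay outside its promoter DHS.

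H2-Q10 encodes a secreted class I molecule that the liver makes in quantity. Its promoter DHS, chr17:35606194-35607934, had the highest fold enrichment of any member promoter in male B6, 7.09. It was 4.15 in B6 females, and in CAST it was 4.52 (males) and 3.80 (females). The summits held 115 reads (interval 94.9 to 138), 61 (46.7 to 78.4), 68 (52.8 to 86.2) and 33 (22.7 to 46.3), and in each list the local background was the genome-wide one. In these plain values male B6 was highest and the other 3 lists lay near each other. Divided by the general male to female ratio of B6, given further on, the sex ratio was 1.29 with a counting interval that contained 1 (0.949 to 1.77), and with reads over the genome-wide background, divided by its own median, it was 1.02. The peak was also widest in male B6, 1741 bp, against 559 bp in B6 females and 591 and 407 bp in CAST males and females. The median peak width over a whole list was 531 to 596 bp. Summits were at -60, -51, 22 and -131 bp of the gene start, the last of which falls within the printed stretch, and 99.8% of the 50-base sequences in the region are unique in mm9.

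H2-M3, whose product presents peptides with a formylated first residue, as bacteria and mitochondria make them, had its promoter DHS at chr17:37407104-37408216. Fold enrichment was 4.403 and 2.88 in B6 males and females and 4.04 and 3.13 in CAST. As at H2-K1, the males were above the females in both strains and the strains overlapped within their counting intervals. Widths were 964, 793, 1113 and 264 bp, so the peak was narrowest in the shallowest list.

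H2-Q4 had the weakest promoter DHS of the 5, at chr17:35516323-35516769, where an exon of the non-coding gene Gm11131 is also annotated. Fold enrichment was 3.48 (B6 males), 2.68 (B6 females) and 2.82 (CAST males), from 56, 39 and 42 reads, and no peak was listed for CAST females. The lowest count of any female CAST peak at the genome-wide background was 19 reads. When read count and background of the male CAST peak were scaled down to the depth of female CAST, the peak still passed that list's lowest −log10 p of 3.55. When every list was instead cut to the 24888 peaks of the smallest, the male CAST peak was lost as well and both B6 peaks were kept. The part of depth in the missing peak was not tested.

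The 5 members without a promoter DHS fell into a group with repeated sequence and a group without. H2-Q6 and H2-Q7, which with their neighbours encode the lymphocyte antigen Qa-2, share a run of 67 identical bases in their promoters, longer than the 50 bases of a read end. Since the authors kept only uniquely mapped reads, the share of 50-base sequences that occur once in mm9 was computed for the 2 kb around each gene start. It was 41.4% for H2-Q6, 46.7% for H2-Q7 and 53.9% for H2-T23, the gene of the Qa-1 heavy chain. Among 22352 protein-coding starts the median was 100% and the 10th percentile 80%, and 5.53% lay below the H2-T23 value. At these 3 genes a lack of placeable reads and a lack of open chromatin cannot be told apart.

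H2-Q1 (86.4% unique) and H2-Q2 (92.7%) had no promoter DHS either, and the cause was not tested. The members with a promoter DHS were at 89.2% (H2-K1), 92.4% (H2-Q4), 96.7% (H2-D1), 96.4% (H2-M3) and 99.8% (H2-Q10). These shares describe mm9, and those of the CAST version were not analysed here. Between the promoter regions of H2-Q4 and H2-Q10 lay 89424 bp without a DHS in any list, a stretch that holds H2-Q6 and H2-Q7 and in which 31.6% of 50-base sequences are unique. Over all windows together the share was 67.0%. The annotation gives the name H2-Q2 to 2 gene models and no model the name H2-Q1. The first (chr17:35457350-35462044) was taken as H2-Q1 from the RefSeq order of genes, and the second (chr17:35479187-35483707) as H2-Q2, where the RefSeq promoter of H2-Q2 also matched.

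**Figure D2:**
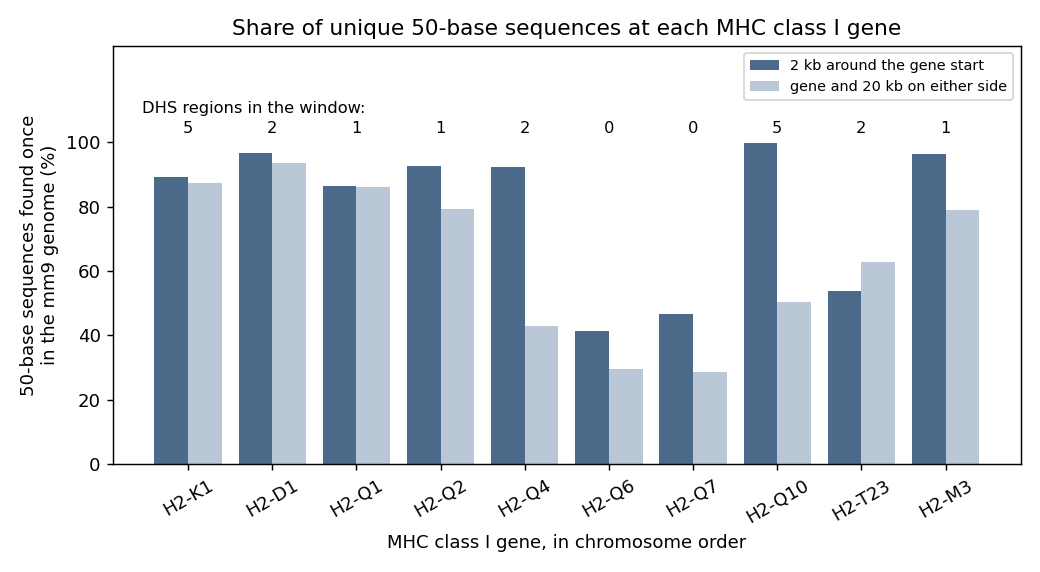
Share of 50-base sequences that occur once in the mm9 genome (vertical axis, percent) in the 2 kb around the gene start (dark bars) and in the gene with 20 kb on either side (light bars), with the number of DHS regions per window printed above each gene. H2-Q6 and H2-Q7 have the lowest bars, at 41.4% and 46.7% for the start, and no region in their windows.

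Besides the 5 regions at the starts described so far, the windows held 13 others, of which 1, inside H2-K1, also lies within 1 kb of that gene's start. The strongest of all 18 in every list lay within the H2-K1 window, past the end of the gene, at chr17:34115483-34116118 over an exon and the start of H2-K2, an annotated class I pseudogene. Its fold enrichment was 9.27 and 6.97 in B6 males and females and 7.48 and 5.82 in CAST, more than at any member promoter in the same list. A neighbouring region at chr17:34116678-34117543, over an exon of Gm4152, was at 4.54 and 3.57 in B6 males and females and at 2.49 in CAST males, and was not listed for CAST females. In the H2-T23 window the strongest region was the promoter of H2-T24, another non-classical class I gene, at chr17:36157169-36158083, with 6.52, 4.20, 6.17 and 4.87 in the 4 lists. The other region of that window, chr17:36179679-36180083 at H2-T22, was found in male B6 alone at 2.69. Upstream of H2-D1, the intergenic region chr17:35394946-35395547 was listed in male B6 (2.73), male CAST (3.12) and female CAST (3.17) and not in female B6, and 79.6% of its 50-base sequences are unique. A male CAST peak of 2.23 lay within the H2-K1 coding sequence (chr17:34136291-34136637).

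**Figure D3:**
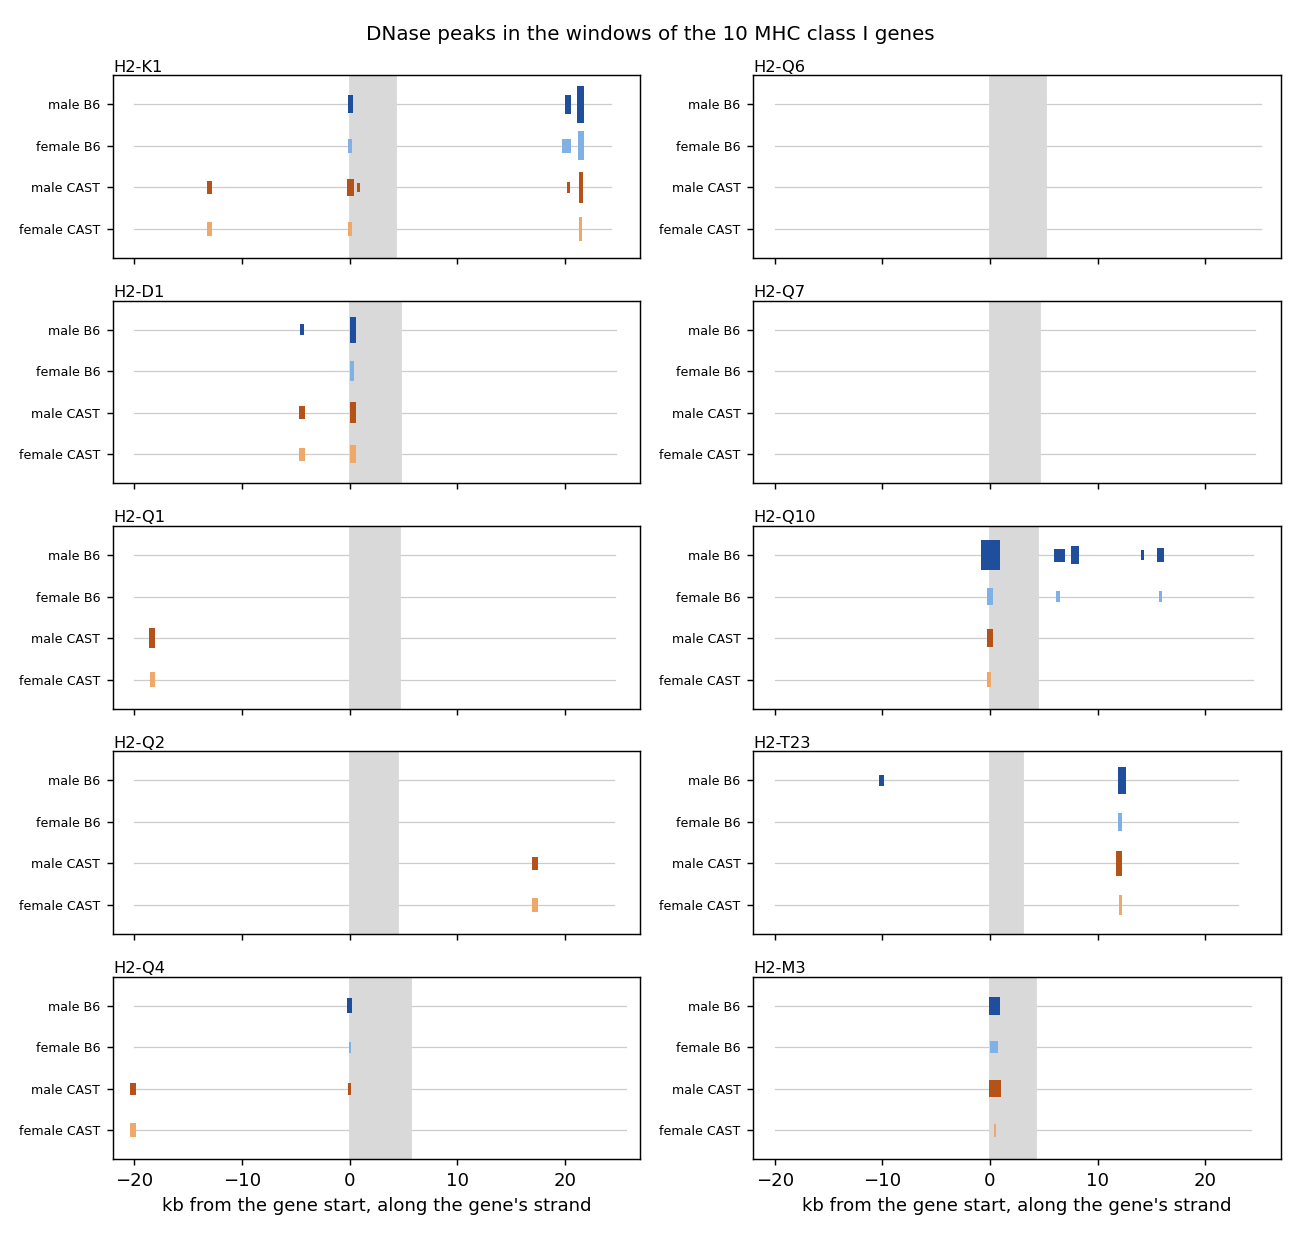
Peaks of the 4 lists in the window of each gene, drawn to scale against the distance in kb from the gene start along the gene's strand, with grey marking the gene body and bar height proportional to fold enrichment up to a value of 9. The 4 regions past the end of H2-Q10 appear in the B6 rows, the regions at -18624 to -18059 bp of H2-Q1 and -13245 to -12771 bp of H2-K1 appear in the CAST rows, and H2-Q6 and H2-Q7 are empty.

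Both CAST lists and neither B6 list held 3 of the 18 regions (16.7%, beside 3.62% of all regions). This count depended on the settings, with 1 when lists were cut to equal size and 0 with windows of 10 kb. The intergenic region chr17:35438726-35439291, upstream of H2-Q1, had fold enrichments of 4.85 in male and 3.47 in female CAST, from 73 and 30 reads. The intergenic region chr17:34150049-34150523, upstream of H2-K1, had 3.08 and 3.24, and the region chr17:35496164-35496724 over Gm6571, in the windows of both H2-Q2 and H2-Q4, had 2.95 and 3.47. The first and the last of these were the sole regions of the H2-Q1 and H2-Q2 windows, which were empty in B6. In B6 sequence (mm9) 97.5% to 100% of the 50-base sequences of these 3 regions are unique.

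Both B6 lists and neither CAST list held 2 regions (11.1%, beside 3.32% of all regions), and both lay past the end of H2-Q10. The count was 3 when lists were cut to equal size and 1 with windows of 10 kb. At chr17:35613032-35613981 the fold enrichment was 3.12 in male and 2.75 in female B6, and at chr17:35622576-35623177 it was 3.55 and 2.48. Another 2 regions in that stretch were listed in male B6 alone, at 4.53 (chr17:35614552-35615281, 78.1% unique) and 2.26 (chr17:35621030-35621383). The H2-Q10 window thus held 5 regions in male B6, 3 in female B6 and 1, the promoter, in each CAST list. CAST reads were placed on a CAST version of mm9 whose uniqueness was not analysed here, so loss of placeable reads and loss of open chromatin in CAST cannot be told apart at these regions. The 2 regions of male B6 alone were missing in female B6 as well, whose reads were placed on mm9. The weaker of them was lost in male B6 too when lists were cut to equal size or scaled to equal depth.

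For the comparison of the sexes, 14 regions were listed in B6 males or females, of which 10 were in both, 4 in males alone and 0 in females alone. Over all regions of these lists 36.4% were in male B6 alone and 5.13% in female B6 alone. In CAST 13 regions were listed, 10 in both sexes, 3 in males alone and 0 in females alone, beside 40.3% and 3.9% of all regions. No member region was in both male lists and neither female list (9.38% of all regions), nor in both female lists and neither male list (0.0622%). Regions in a single list numbered 4 of 18, beside 35.2% of all regions, and 3 of these were in male B6. No test of these differences in share was possible.

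Where both sexes had a peak, the male to female ratio of fold enrichment was divided by its median over all shared regions, 1.32 in B6 and 1.19 in CAST, which takes out the general difference between the lists. At the promoters in B6 this relative ratio was 1.003 for H2-K1, 0.965 for H2-D1, 0.986 for H2-Q4, 1.29 for H2-Q10 and 1.16 for H2-M3. In CAST it was 1.03 for H2-K1, 0.968 for H2-D1, 0.9995 for H2-Q10 and 1.08 for H2-M3. Each of these counting intervals contained 1, that of H2-Q10 in B6 running from 0.949 to 1.77. The 10 shared regions ranged from 0.861 to 1.29 in B6 and from 0.715 to 1.18 in CAST, and the interval left out 1 at 0 of them, beside 13% of all shared regions in B6 and 10.9% in CAST. None was past 2-fold, beside 0.22% of shared regions in B6 and 0.369% in CAST. By fold enrichment, the male excess seen at the member promoters in the plain values was thus about the size of that at shared DHS in general. With reads over the genome-wide background, divided by its own median, the ratio was above 1 at 4 of 10 regions in B6 and 1 of 10 in CAST.

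For the comparison of the strains, the male lists together held all 18 regions, 9 in both strains, 5 in B6 alone and 4 in CAST alone, beside 19.1% and 20.9% of all regions. The female lists held 14, of which 6 were shared, 4 were in B6 alone and 4 in CAST alone, beside 22.6% and 18.3%. In all 4 lists were 6 of 18 regions, beside 35.6% of all regions. These comprised the promoters of H2-K1, H2-D1, H2-Q10 and H2-M3, the H2-K2 region and the H2-T24 promoter.

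The B6 to CAST ratio of fold enrichment, divided by its median over shared regions (0.947 in males and 0.842 in females), was above 1 at 8 of 9 shared regions in males and at 6 of 6 in females. The female count depends on the division, since 3 of the 6 undivided ratios were below 1, whereas the male count was 8 of 9 either way. By fold enrichment none was past 2-fold, beside 2.31% of shared regions in males and 1.1% in females. In males the ratio at the H2-Q10 promoter was 1.66 (counting interval 1.23 to 2.23), higher than at 97.5% of shared regions, and in females it was 1.30 (0.849 to 1.98). The region over Gm4152 had 1.92 (1.32 to 2.80) in males, and the H2-K2 region had 1.31 (1.04 to 1.65) in males and 1.42 (1.02 to 1.99) in females. The H2-D1 promoter had 1.30 (1.03 to 1.65) and 1.32 (0.933 to 1.88). The remaining ratios, from 0.924 to 1.305, had intervals that contained 1. In total the interval left out 1 at 4 of 9 regions in males, beside 23.9% of all shared regions, and at 1 of 6 in females, beside 13.9%.

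The ratio was also taken with reads over the genome-wide background in place of fold enrichment, divided by its own median over shared regions in the same way. It was then above 1 at 7 of 9 regions in males and at 4 of 6 in females. At the H2-D1 promoter it was 0.745 in males and 0.962 in females, below 1 in both. In males the intergenic region upstream of H2-D1 moved from 0.924 to 0.553, the H2-K2 region from 1.31 to 1.81 and the region over Gm4152 from 1.92 to 2.77. The last of these was then past 2-fold, as the sole region of 9 in males, beside 6.12% of shared regions, and 0 of 6 were in females, beside 3.28%. The H2-Q10 promoter was at 1.63 in males and 1.36 in females, close to its values by fold enrichment.

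**Figure D4:**
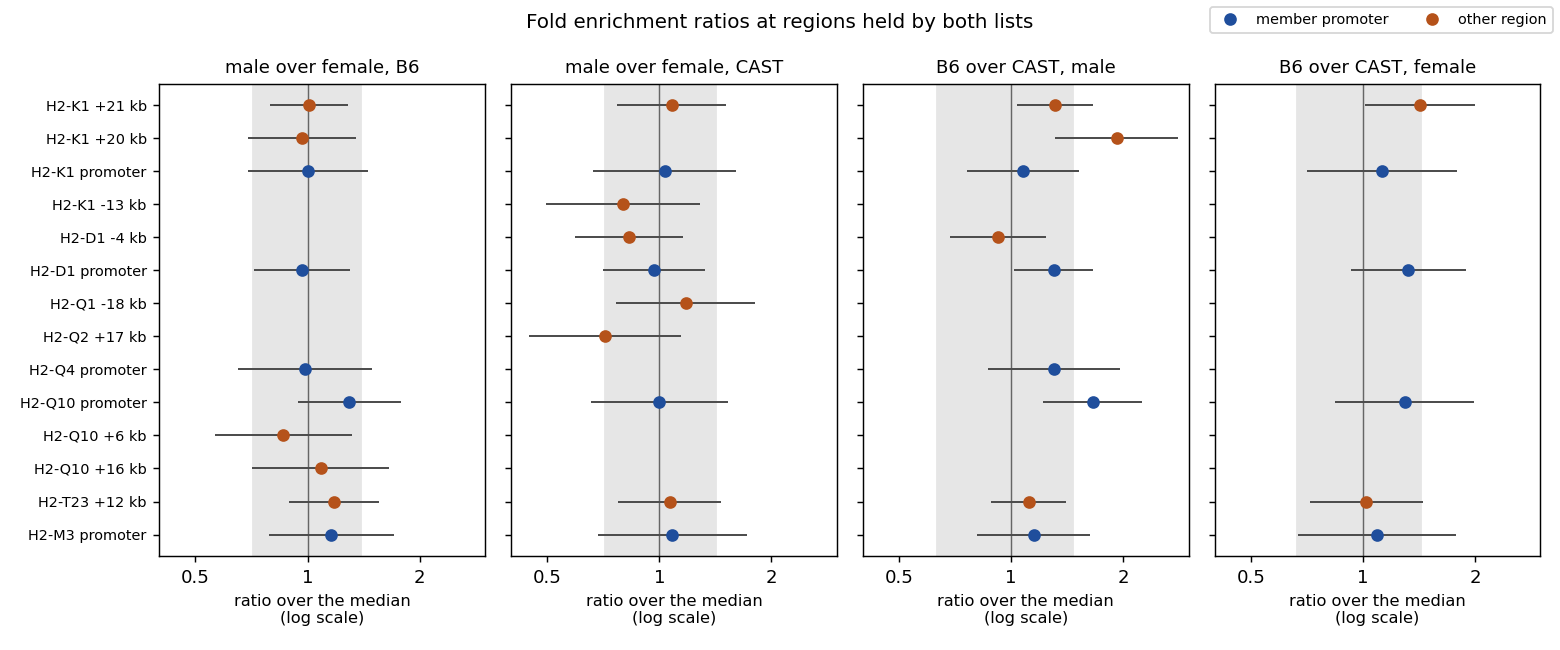
Ratio of fold enrichment at the window regions held by both lists of a comparison, divided by the median over all shared regions (log axis, vertical line at 1), for males over females in each strain and B6 over CAST in each sex, with bars for the 95% counting interval and grey for the range from the 5th to the 95th percentile of all shared regions. In the sex panels every bar crosses 1, whereas in the male strain panel the bars of the H2-Q10 promoter, the H2-D1 promoter and the regions past H2-K1 lie to the right of it.

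Promoter DHS were listed for most partners and regulators of the class I heavy chains. Of 21 genes for peptide loading and for regulation of class I, 20 and 19 had a promoter DHS in B6 males and females, and 20 and 18 in CAST. Over all protein-coding genes the shares were 51.8% and 47.3% in B6 males and females, and 51.0% and 44.4% in CAST. B2m, the light chain, was at 3.75, 3.65, 4.31 and 4.58 in the 4 lists. Tap1, which pumps peptides into the endoplasmic reticulum, shares its promoter with the immunoproteasome subunit Psmb9. This DHS, counted above for both genes, was at 10.1, 7.53, 11.4 and 9.27. Nlrc5 had no promoter DHS in any list. Psmb8, another immunoproteasome subunit, had 3.19 in male B6 and 2.31 in male CAST and none in either female list. No gene of the list was past 2-fold in either comparison. Its promoters had median relative B6 to CAST ratios of 1.02 in males and 1.08 in females. Over the shared window regions of the members the medians were 1.30 and 1.21. These are unlike sets, since the window regions include some that are not member promoters, such as those at H2-K2 and H2-T24.

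Nuclei came from whole liver, in which more nuclei of a cell type and more openness per nucleus cannot be told apart. Hepatocyte markers had a promoter DHS for 5 of 6 genes in the male lists and 4 of 6 in the female lists, among them Alb, Ttr, Hnf4a and Cps1 in every list. Among all protein-coding genes, 44.4% to 51.8% had a promoter DHS, depending on the list, so these small marker counts allow no firm reading. None of 7 T and B lymphocyte markers, 6 Kupffer cell and macrophage markers or the leukocyte gene Ptprc had one in any list. Among 4 class II antigen presentation genes, H2-Ab1 had one in male B6 (2.63) and Cd74 one in male CAST (2.49). Of 3 sinusoidal endothelial markers, 3 and 2 had a promoter DHS in B6 males and females and 1 in each CAST list. Stab2 was higher in CAST (8.13 and 5.45) than in B6 (3.59 and 2.81). The others went the other way: Lyve1 (2.17 in male B6) and Kdr (2.55 and 2.35 in B6 males and females) had none in CAST. The part of cell composition in the class I values was not tested.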

How the data were processed

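DNase-seq libraries, 4 for each sex and strain (16 in all), were assigned to groups from their titles. Per the study's methods, the authors mapped reads with Bowtie2 and kept uniquely mapped ones, B6 reads on mm9 and CAST reads on a version of mm9 carrying CAST variants, and moved CAST peaks back to mm9 coordinates. They merged the libraries of a group before MACS2, so 4 peak lists were deposited. Deposited per peak were the fold enrichment, a ratio of summit pileup to local background with 1 added to each, the −log10 p-value and −log10 q-value against that background, and the summit offset. The methods name input DNA as the background for peaks, so local backgrounds may come from input libraries. Which input went with which list was not given in the sources used here, and the depth per library was not used.

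Summit pileups were recovered as whole reads (within 0.02 for at least 99.86% of peaks) from the fold enrichment and −log10 p, after the step was tested on simulated data, and carry exact Poisson 95% intervals. Intervals of ratios combine the Poisson errors of both pileups on the log scale. Reads are not unique molecules, so intervals cover counting error alone. Genes and starts were from GENCODE M1 (mm9). Coordinates count from 1. Uniqueness was counted for all 50-base sequences, both strands, over 22 assembled chromosomes, each read end on its own, and at 100-bp steps for the comparison with other genes. Named were all members with their promoter regions, the strongest other region of each window, every region held by both lists of 1 sex or strain alone, and pathway genes lacking a promoter peak in at least 1 list. A result that this rule would name is not reported here. The remaining window regions, B2m and Tap1 were added after values were seen. Members, lists and motifs were chosen with earlier results of these data known. Alternatives covered joining, thresholds, list size, depth, window and promoter limits, and the scaling of ratios. Python 3.11.15, pandas 2.3.3, scipy 1.17.1 and bedtools 2.31.1 were used.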

Additional observations from a re-analysis of the deposited data

How the results depend on the processing

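No paired analysis was possible because each group is a single pooled list, which also leaves no replicate to drop. With peaks at or above the median −log10 q of all lists (15.7), the 18 window regions became 10. B6 males and females then held 8 and 4 and CAST males and females 8 and 3, all 4 lists shared 3, both male lists alone held 2, and 0 regions were left to both B6 lists alone or to both CAST lists alone. Under that threshold 2 members in female B6 (H2-D1 and H2-Q10) and 1 in female CAST (H2-D1) had a promoter DHS. In gene bodies alone there were 6 regions, 5 and 5 in B6 males and females and 6 and 4 in CAST, with 0 in both B6 lists alone and 0 in both CAST lists alone. Windows of 10 kb left CAST males with 8 and CAST females with 6 regions, 1 in both B6 lists alone and 0 in both CAST lists alone. Cut to the size of the smallest list, male CAST held 8 and both CAST lists alone 1. Joining at 50% overlap of both peaks left 1 in both B6 lists alone. Joining peaks within 500 bp and scaling to an equal genome-wide background moved no count by more than 1.5 times, and under that scaling, which left 24625 to 37039 peaks per list, the regions of both B6 lists alone and of both CAST lists alone kept their lists.

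Over the member promoters the geometric mean of the relative ratios was 1.07 (male to female, B6), 1.02 (CAST), 1.28 (B6 to CAST, males) and 1.21 (females). Undivided, they were 1.42, 1.21, 1.22 and 1.015. With reads over the genome-wide background in place of fold enrichment, undivided, the means were 1.47, 1.29, 1.09 and 0.893. Divided by their own medians, an alternative chosen after seeing the data, they were 0.881, 0.923, 1.13 and 1.15, so the strain ratios stayed above 1 and the sex ratios were below it. The cause was not tested. Among ratios of single promoters, H2-D1 alone moved beyond its counting interval. CAST females had the shallowest list, at 7.94 background reads, and the part of depth in these results was not tested.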
